A study of Arabidopsis thaliana with 24 samples.

Results

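The 8 regulators described here were the WRKY transcription factors WRKY40, WRKY18, WRKY33, WRKY46, WRKY53 and WRKY70, and the zinc finger proteins ZAT10 and ZAT12 of Arabidopsis thaliana. They were chosen by name and probe set, 8 of 22810 probe sets on the array: 261892_at for WRKY40 (AT1G80840), 253535_at for WRKY18 (AT4G31800), 267028_at for WRKY33 (AT2G38470), 263783_at for WRKY46 (AT2G46400), 254231_at for WRKY53 (AT4G23810), 251705_at for WRKY70 (AT3G56400), 261648_at for ZAT10 (AT1G27730) and 247655_at for ZAT12 (AT5G59820). The platform's gene table listed 2 of the 8 (WRKY53, and ZAT10 under its other name STZ), and the other 6 names came with the choice of probe sets. That choice was made with earlier results of these data known. Shares of all probe sets are therefore given beside counts of the 8 for scale and not as a test. All 8 locus codes were found in the RefSeq gene table, where ZAT12 is listed as RHL41.

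WRKY proteins bind the W box, a short promoter element, and many are themselves switched on within minutes to hours of wounding, pathogen signals or oxidative stress. The 2 ZAT proteins are C2H2 zinc finger factors that respond to cold, high light, salt and reactive oxygen. WRKY40 and WRKY18 are related factors that act together in dampening or tuning defence and abscisic acid signalling. WRKY33 drives camalexin production against necrotrophic fungi, and WRKY46, WRKY53 and WRKY70 are related factors of salicylic acid signalling and, for WRKY53, leaf senescence.

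The samples were shoots (seedlings with the roots cut off) of wild type (WT, Col-0) and of pnp1-1, which lacks the polynucleotide phosphorylase of the chloroplast, an enzyme that degrades and trims plastid RNA. The mutant is 1 insertion line, SALK_013306, in the same Columbia background, so all differences between genotypes rest on a single allele. All plants had 2 weeks of growth with full nutrients, 0.5% sucrose and 16 h days at 22 °C, and then spent 3 h or 1 week on new plates. These held either the full medium (+P) or medium in which potassium sulphate stood in for the potassium phosphate (-P). There were 3 biological replicates for every one of the 8 groups, with no fewer than 4 pooled seedlings in each. Values are single-colour array intensities on a linear scale, group levels are geometric means, and differences are in log2 intensity from 1 limma fit over 22746 probe sets, with its standard error (SE) for 3 arrays against 3. A difference was called at a Benjamini-Hochberg adjusted p under 0.05 over all probe sets.

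The 3 h and 1 week arrays were written with different precision and differed in mean intensity (470.1 to 503 at 3 h, 593 to 612 at 1 week), so no level at 3 h was set against a level at 1 week. An intensity of 16 was taken as the edge of background, below which values have no dependable order, and 40.3% to 41.5% of each array's probe sets fell below it. At 1 week, 3 arrays stood apart by a raised lower quartile of intensity: WT -P replicate 1 (6.36), pnp1-1 -P replicate 1 (6.45) and pnp1-1 +P replicate 2 (6.44), against 5.41 to 5.76 on the other 9. At 3 h, WT +P replicate 2 (6.125) and pnp1-1 -P replicate 2 (6.1) lay above the others (5.7 to 5.9). They were not left out together in any fit. In whole shoots, fewer cells of a type and less RNA per cell cannot be told apart. Of 3 genes listed as root markers, 1 had a probe set named as its own: PYK10, a beta-glucosidase most abundant in roots and hypocotyls. It was called higher in pnp1-1 in all 4 conditions, with levels of 1078 and 1346 in WT against 4692 and 5637 in pnp1-1 at 3 h, and of 949 and 1830.2 against 8630.5 and 10455 at 1 week. The difference was 1.80 ± 0.35 on +P at 3 h, 2.39 ± 0.35 on -P at 3 h, 3.46 ± 0.35 on +P at 1 week and 2.24 ± 0.35 on -P at 1 week. The probe set of a second listed root marker, which it shares with another gene, was called in none of the 4 (1.29, 0.80, 0.39 and -0.17 in the same order, each ± 1.16), and the third was not analysed here. The part of root cells in the genotype differences below was not tested. The shoot markers and the transcript of the mutated gene were not analysed here.

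**Figure D1:**
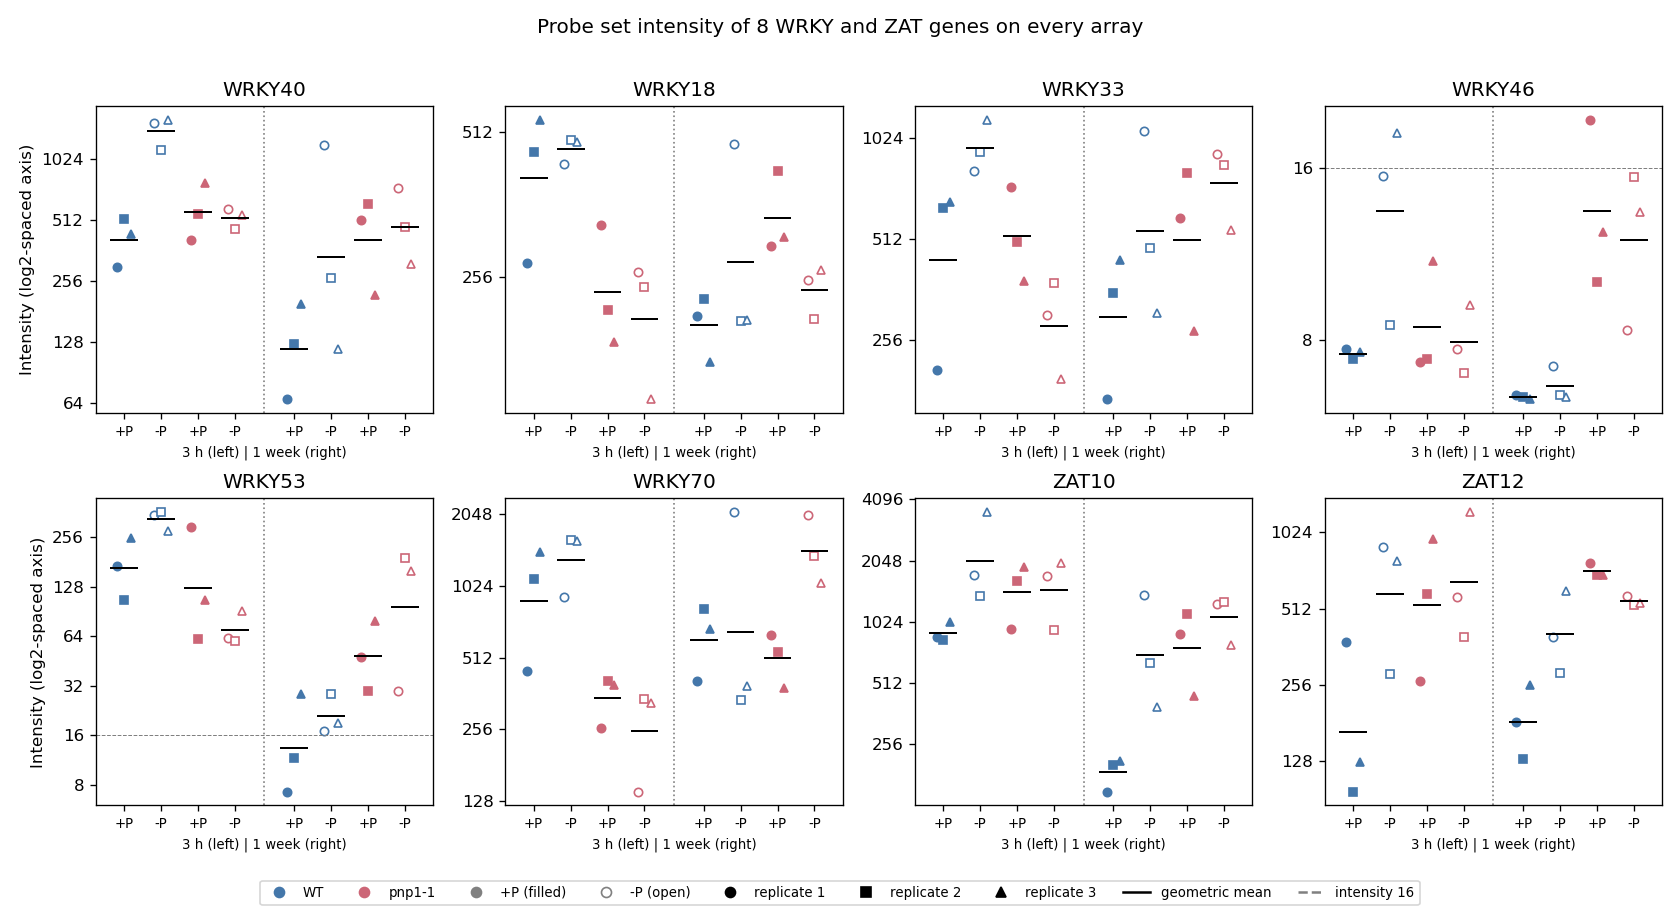
Probe set intensity (vertical axis, log2-spaced, its own range in each panel) of the 8 genes on all 24 arrays, by group; blue is WT, red is pnp1-1, filled symbols are +P, open symbols are -P, the 3 symbol shapes are the replicates, and bars are geometric means. WT on -P holds the highest mean at 3 h for all genes but ZAT12, and WT on +P the lowest mean at 1 week for all genes but WRKY70.

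The first question was how the 8 genes differed between the mutant and WT. After 1 week on +P, 3 of the 8 were called higher in pnp1-1, as were 3.33% of all probe sets. ZAT10 rose 4.08-fold, ZAT12 rose 3.94-fold, and WRKY46 was called from levels near background. There, 7 of the 8 differences were above 0, with WRKY70 the exception, and 60.4% of all probe sets were. At 3 h on -P, 2 of the 8 were called lower, as were 1.74% of all probe sets. WRKY70 fell by 2.39 and WRKY18 fell by 1.17 on the log2 scale. There, 7 of the 8 differences were below 0, and 55.5% of all probe sets were. ZAT12 was the only one of the 8 whose difference was above 0 in all 4 conditions.

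ZAT10 is a repressor that is induced by many abiotic stresses. On +P at 1 week it read 150.2, 203 and 213 on the 3 WT arrays and 889.6, 1121 and 444 on the 3 pnp1-1 arrays, so the groups did not overlap. It rose by 2.03 ± 0.46 (SE; adjusted p = 0.0112, limma). On -P at 1 week WT already read 1390.1, 644 and 393, against 1258, 1278 and 788 in pnp1-1, and the groups overlapped (0.62 ± 0.46, adjusted p = 0.812). At 3 h, ZAT10 read 865, 835 and 1018 in WT and 945, 1629.5 and 1914 in pnp1-1 on +P, a difference of 0.67 ± 0.46 that was not called (adjusted p = 0.5). Without the 3 arrays of raised lower quartile the call on +P at 1 week was lost (1.75, adjusted p = 0.0503), as it was without replicate 1 or 2 of pnp1-1 (adjusted p up to 0.0732) or when the compared groups were fitted alone.

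ZAT12 is a marker of oxidative and high light stress. On +P at 1 week it read 182, 131 and 256 in WT and 773, 694 and 697 in pnp1-1. The mutant arrays had an SD of 0.09 in log2 intensity, and all of them lay above the WT arrays. ZAT12 rose by 1.98 ± 0.56 (adjusted p = 0.0377). On +P at 3 h the values were 378, 97.4 and 128 in WT and 266, 585 and 961 in pnp1-1. The difference there was of like size, 1.66 ± 0.56, but the lowest mutant array lay below the highest WT array and it was not called (adjusted p = 0.081). On -P the levels were closer, with 897, 283 and 787 in WT and 567, 396 and 1230.1 in pnp1-1 at 3 h (0.16 ± 0.56), and 395, 285 and 601 in WT and 577, 530.0 and 539 in pnp1-1 at 1 week (0.43 ± 0.56). Averaged over the 4 conditions, ZAT12 was called higher in pnp1-1 by 1.06 ± 0.28 (adjusted p = 0.01) and ZAT10 by 0.71 ± 0.23 (adjusted p = 0.0315), the 2 members called in that mean, where 22.5% of all probe sets were called. The ZAT12 mean kept its call in all 24 fits that left out 1 array, and the ZAT10 mean in 12 of 24. The single call on +P at 1 week was less steady: ZAT12 lost it whichever of the 6 arrays was left out (adjusted p up to 0.16) and without the 3 arrays of raised lower quartile (2.00, adjusted p = 0.149). It was also lost with WT +P replicates 2 and 3 averaged.

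WRKY70, a node between salicylic acid and jasmonate signalling, was lower in the mutant at 3 h. On -P it read 918, 1596 and 1577 in WT and 140.5, 342 and 331 in pnp1-1. Every mutant array lay below every WT array. WRKY70 fell by 2.39 ± 0.58 (adjusted p = 0.0253). On +P at 3 h the arrays were also apart, with 449, 1089.9 and 1414 in WT against 258, 409.6 and 394 in pnp1-1, but the difference of -1.35 ± 0.58 was not called (adjusted p = 0.19). At 1 week on +P the groups overlapped, at 409, 817 and 672 in WT and 638, 541 and 383 in pnp1-1 (-0.26 ± 0.58, adjusted p = 0.788). At 1 week on -P, pnp1-1 read 2039.6, 1362 and 1049.8, while WT read 2087, 341 and 391. WT replicate 1 stood about as high as the highest mutant array and the other 2 far below, and the difference was 1.13 ± 0.58 (adjusted p = 0.526). Without that array it was 1.97 (adjusted p = 0.06), and without pnp1-1 -P replicate 1 instead it was 0.87 (adjusted p = 0.761).

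WRKY53, a promoter of leaf senescence, had a lower mean in the mutant than in WT at 3 h and a higher one at 1 week on both media. On -P at 3 h it read 348, 364 and 280.1 in WT and 62.2, 60.1 and 91.3 in pnp1-1, with no overlap, and the difference was -2.23 ± 0.66 (adjusted p = 0.0669). On -P at 1 week it read 16.9, 28.5 and 18.9 in WT and 29.6, 191 and 159 in pnp1-1, again with no overlap but with the mutant above, by 2.21 ± 0.66 (adjusted p = 0.123). Neither difference was called. That at 3 h passed the threshold with median centring (adjusted p = 0.038), without dim probe sets (0.0411), with array weights (0.0036) and in a fit of the compared groups alone (0.0228). It did not pass with quantile normalization (0.0523), with levels under 16 set to 16 (0.068) or with each time fitted alone (0.0597). Nor did it with a trended robust prior (0.0612) or with replicate number as a block (0.0719). Leaving out any single array of the compared groups gave an adjusted p from 0.0919 to 0.212. Without pnp1-1 -P replicate 1, the lowest mutant array, the 1 week difference was 3.06 (adjusted p = 0.0109). Without WT -P replicate 1 instead it was 2.06 (adjusted p = 0.282). On +P, WRKY53 read 171, 107 and 252 in WT and 296, 61.9 and 106 in pnp1-1 at 3 h (-0.41 ± 0.66), and 7.26, 11.7 and 28.5 in WT and 47.5, 29.8 and 79.1 in pnp1-1 at 1 week (1.85 ± 0.66, adjusted p = 0.105). The first 2 of these 1 week WT values lie under 16.

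WRKY40 and WRKY18 had differences of opposite sign on +P at 3 h. WRKY18 read 274, 466 and 543 in WT and 328, 219 and 187 in pnp1-1 there (-0.79 ± 0.32, adjusted p = 0.165), while WRKY40 read 299.8, 516 and 437 in WT and 407, 549.9 and 778 in pnp1-1 (0.46 ± 0.62, adjusted p = 0.889). On -P at 3 h both were lower in the mutant with no overlap. WRKY18 read 439, 492 and 487 in WT and 263, 244 and 143 in pnp1-1 and fell by 1.17 ± 0.32 (adjusted p = 0.0476). This WRKY18 call held in 3 of 9 alternatives that kept all arrays and in 0 of 6 fits that left out 1 array. It was lost with quantile normalization, median centring, levels under 16 set to 16 and the replicate block (limma adjusted p up to 0.128). Fitting each time or the compared groups alone lost it too. WRKY40 read 1529, 1131 and 1595 in WT and 577, 464 and 542 in pnp1-1, a difference of -1.42 ± 0.62 (adjusted p = 0.255). The fit's SE for WRKY40 pools all groups, and its 3 h groups were tighter, with SDs of 0.27 in WT and 0.16 in pnp1-1 on -P. On +P at 1 week both were higher in the mutant with no overlap, WRKY40 at 67.2, 126 and 197 in WT against 510.5, 614 and 217 (1.78 ± 0.62, adjusted p = 0.0919), and WRKY18 at 213, 231 and 171 against 296, 425 and 309 (0.74 ± 0.32, adjusted p = 0.199). On -P at 1 week the values overlapped for both. WRKY40 read 1194, 266 and 118 in WT and 733, 471 and 311 in pnp1-1 (0.50 ± 0.62), and WRKY18 read 484, 207 and 208 in WT and 252, 209 and 265 in pnp1-1 (-0.19 ± 0.32).

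WRKY33 had its widest gap between genotypes on -P at 3 h, at 814, 928 and 1161 in WT and 305, 380.2 and 196 in pnp1-1. The groups did not overlap, and the difference of -1.76 ± 0.52 was not called (adjusted p = 0.069). In the other 3 conditions its groups overlapped. They read 208, 634 and 661 in WT and 733, 502 and 386 in pnp1-1 on +P at 3 h (0.23 ± 0.52), and 171, 354 and 444 against 592, 806 and 273 on +P at 1 week (0.76 ± 0.52). On -P at 1 week WRKY33 read 1071, 482 and 308 in WT and 917, 854 and 544 in pnp1-1 (0.47 ± 0.52).

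WRKY46 lay near background, with every group mean under 16 and 2 of 24 arrays above it. On +P at 1 week it read 6.41, 6.36 and 6.3 in WT and 19.4, 10.1 and 12.4 in pnp1-1 and was called higher by 1.08 ± 0.27 (adjusted p = 0.0222). With levels under 16 set to 16 this difference was 0.09 and the call was lost. The call was also lost with WT +P replicates 2 and 3 averaged. On -P at 1 week it read 7.19, 6.41 and 6.35 in WT and 8.31, 15.4 and 13.4 in pnp1-1 (0.85 ± 0.27, adjusted p = 0.157). At 3 h it read 7.7, 7.4 and 7.6 in WT and 7.3, 7.4 and 11 in pnp1-1 on +P (0.15 ± 0.27), and 15.5, 8.5 and 18.4 in WT and 7.7, 7 and 9.2 in pnp1-1 on -P (-0.76 ± 0.27, adjusted p = 0.137).

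**Figure D2:**
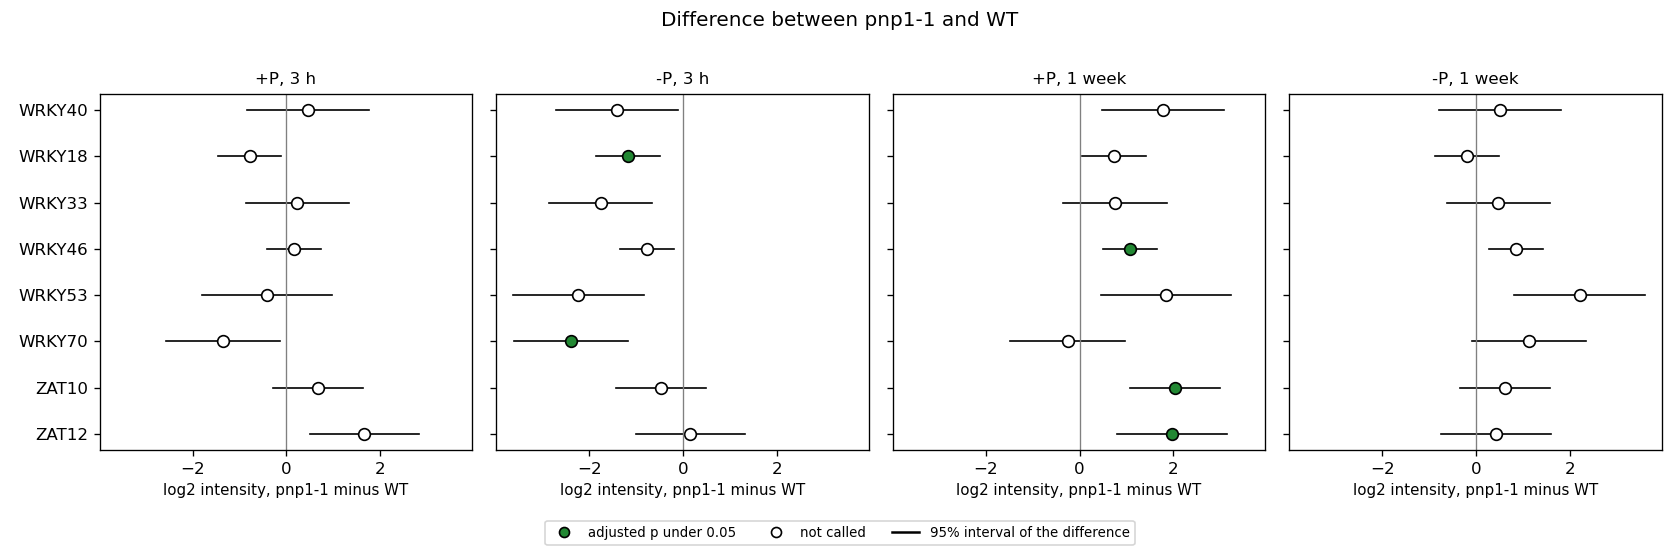
Difference between pnp1-1 and WT in log2 intensity (horizontal axis) for each gene in the 4 conditions; points are the fitted differences, lines their 95% intervals, and green points have an adjusted p under 0.05. On -P at 3 h, 7 of 8 points lie left of 0 (55.5% of all probe sets). At 1 week 7 of 8 lie right of it on each medium (60.4% of all probe sets on +P, 59.1% on -P).

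In counts, limma called 0 of the 8 genes on +P at 3 h (7.41% of all probe sets), 2 on -P at 3 h (4.26%), 3 on +P at 1 week (7.35%) and 0 on -P at 1 week (1.64%). At an unadjusted p under 0.05 there were 3 (20.1% of all probe sets), 6 (16%), 6 (20.2%) and 2 (10.8%). The median difference of the 8 was 0.19 on +P at 3 h, -1.29 on -P at 3 h, 1.43 on +P at 1 week and 0.56 on -P at 1 week, where the median of all probe sets was between -0.02 and 0.05. Groups that did not overlap numbered 1 lower on +P at 3 h (10.7% of all probe sets), 5 lower on -P at 3 h (9.26%), 6 higher on +P at 1 week (12.1%) and 2 higher on -P at 1 week (6.96%). Same-numbered arrays deviated together on -P at 3 h (correlations of 0.16 to 0.355), though no label says that they pair. With the replicate number as a block within that comparison, WRKY70 kept its call (adjusted p = 0.0442), WRKY40 gained one (adjusted p = 0.0485) and WRKY18 lost it (adjusted p = 0.128). With the compared groups fitted alone, both calls were lost (WRKY70 0.0732, WRKY18 0.0935). WRKY40 (adjusted p = 0.0335) and WRKY53 (0.0228) were called in that fit, as were 1.85% of all probe sets. WRKY18 also lost it whichever of the 6 arrays was left out (adjusted p up to 0.177). WRKY70 lost it in 4 of these 6 fits (up to 0.122), those lacking replicate 2 or 3 of WT or replicate 1 or 2 of the mutant.

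Whether the genotype difference itself moved between the times was tested as a difference of differences, a comparison added after the values had been seen. All 8 genes had a more positive mutant effect at 1 week than at 3 h on both media. So did 58.3% of all probe sets on +P and 57% on -P. Limma called 0 of 8 on +P (0.136% of all probe sets called, with 4 of 8 and 9.58% of all at an unadjusted p under 0.05) and 0 of 8 on -P (0.308%, with 6 of 8 and 6.63%). WRKY53 on -P came nearest, at 4.44 ± 0.94 (adjusted p = 0.053), followed by WRKY70 at 3.52 ± 0.82 (adjusted p = 0.0915) and WRKY46, which lies near background, at 1.61 ± 0.39 (adjusted p = 0.111). On -P at 1 week the WRKY53 values in WT, 16.9 to 28.5, lay close to background, and those in pnp1-1 ran from 29.6 to 191. In all these tests, time cannot be told apart from the processing of the arrays. Without WT -P replicate 1 at 1 week the WRKY70 difference was 4.36 (adjusted p = 0.00311), and without the 3 arrays of raised lower quartile 4.10 (adjusted p = 0.0115). Without pnp1-1 -P replicate 1 at 1 week, also 1 of those 3, the WRKY70 difference was 3.27 and was not called (adjusted p = 0.196). The WRKY53 difference passed the threshold under 7 alternatives, among them quantile normalization (adjusted p = 0.0426) and levels under 16 set to 16 (adjusted p = 0.0459), but not with the compared groups alone (0.101) or the replicate block (0.103). Without the same 3 arrays it was 5.14 (adjusted p = 0.00935), without pnp1-1 -P replicate 1 at 1 week alone 5.29 (adjusted p = 0.00259), and without any other single array 3.95 to 4.67 (adjusted p up to 0.153). ZAT12 had the smallest differences, 0.31 ± 0.79 on +P (95% interval -1.34 to 1.97) and 0.27 ± 0.79 on -P (-1.38 to 1.93), intervals that hold both signs.

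The second question was how the 8 genes responded to the loss of phosphate. In WT the difference at 3 h was above 0 in all 8, by 0.20 to 1.80, and in 36.8% of all probe sets, and no member was called. After 1 week it was again above 0 in all 8, and in 56.6% of all probe sets, and ZAT10 rose 3.78-fold. In pnp1-1 no member was called at either time. WT and mutant responses at the same time rest on different arrays, but each response shares its arrays with the genotype differences above, so the same values are seen from another side.

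At 3 h in WT, the ZAT12 level was 585 on -P against 167 on +P, a difference of 1.80 ± 0.56 (adjusted p = 0.742), and WRKY40 stood at 1402 against 407 (1.78 ± 0.62, adjusted p = 0.936). ZAT10 stood at 2039 against 903 (1.18 ± 0.46), WRKY33 at 957 against 444 (1.11 ± 0.52) and WRKY53 at 328 against 166 (0.98 ± 0.66), each with an adjusted p of 1. WRKY46 went from 7.57 to 13.4, within the background range (0.83 ± 0.27, adjusted p = 0.849). WRKY70 (0.58 ± 0.58) and WRKY18 (0.20 ± 0.32) were nearer 0. Groups did not overlap for 5 of the 8 (WRKY40, WRKY33, WRKY46, WRKY53 and ZAT10), as for 2.82% of all probe sets in that direction. Limma called 0 members and 0% of all probe sets here, with 5 of the 8 and 817 of 22746 probe sets at an unadjusted p under 0.05, and the count of members called stayed 0 under every alternative run, the replicate block included.

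In pnp1-1 at 3 h the same genes did not share a direction: 6 differences were below 0 (55.1% of all probe sets) and 2 above, between -0.88 and 0.30. WRKY33 had the lowest, at a level of 283 on -P against 522 on +P (-0.88 ± 0.52, adjusted p = 1), and its groups did not overlap, as for 1.58% of all probe sets in that direction. WRKY40 stood at 526 against 559 (-0.09 ± 0.62) and ZAT10 at 1471 against 1434 (0.04 ± 0.46). Limma called 0 of the 8 and 0.00879% of all probe sets, with 0 of the 8 and 1.24% of all at an unadjusted p under 0.05. The test of the difference between the genotypes' responses at 3 h was below 0 for all 8 genes and for 40.5% of all probe sets. It ran from -0.38 for WRKY18 to -1.99 ± 0.74 for WRKY33, with a median of -1.32 against 0.02 over all probe sets. It called 0 of the 8 and 0% of all probe sets (limma; 3 of the 8 and 3.01% of all at an unadjusted p under 0.05: WRKY33, WRKY46 and WRKY40), each with an adjusted p of 1. These 8 values use the same 12 arrays and are not independent of each other.

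**Figure D3:**
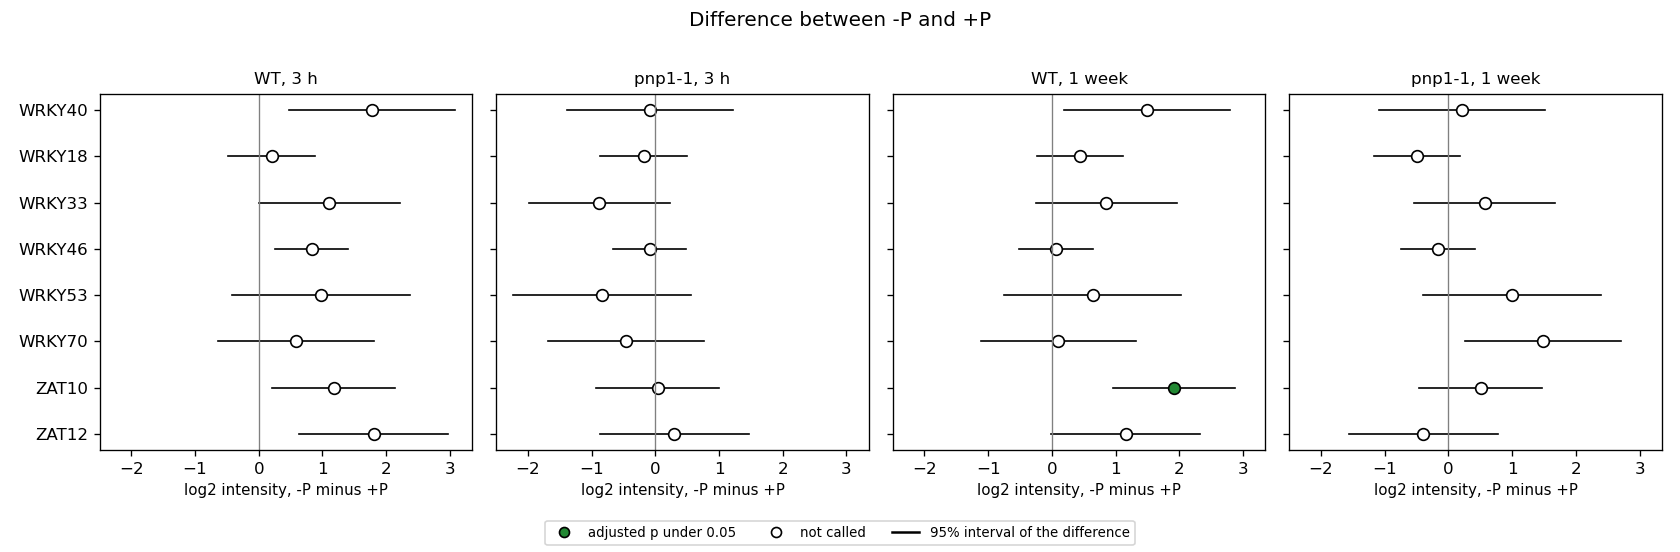
Difference between -P and +P in log2 intensity (horizontal axis) for each gene in WT and pnp1-1 at both times; points are the fitted differences, lines their 95% intervals, and green points have an adjusted p under 0.05. All 8 points lie right of 0 in WT at each time (36.8% of all probe sets at 3 h, 56.6% at 1 week), and ZAT10 in WT at 1 week is the single call.

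After 1 week in WT, ZAT10 rose by 1.92 ± 0.46 (adjusted p = 0.0259), from 150.2, 203 and 213 on +P to 1390.1, 644 and 393 on -P, with no overlap. It was the 1 member of 8 called, where 3.43% of all probe sets were, and 2 of the 8 were at an unadjusted p under 0.05, as were 15.6% of all. ZAT12 stood at 408 against 183, also without overlap (1.16 ± 0.56, adjusted p = 0.328); such separation upward held for 2 of the 8 and 7.09% of all probe sets. WRKY40 stood at 335 against 119 (1.5 ± 0.62, adjusted p = 0.23), but its -P values ran from 118 to 1194. That top value and the top WRKY33, WRKY18, WRKY70 and ZAT10 values all came from WT -P replicate 1, which was the highest of its group for 6 of the 8 members and for 49.6% of all probe sets. Without that array the ZAT10 difference was 1.43 (adjusted p = 0.12), that of WRKY40 was 0.58, that of WRKY33 was 0.36, that of WRKY18 was 0.03 and that of WRKY70 was -0.73, while ZAT12 was as before at 1.18. The ZAT10 call was also lost without WT -P replicate 2 or any 1 of the +P arrays, and when each time or the compared groups were fitted alone. Averaging WT +P replicates 2 and 3 lost it too.

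In pnp1-1 after 1 week, limma called 0 of the 8 (0.941% of all probe sets), with 1 at an unadjusted p under 0.05, as were 5.53% of all. That was WRKY70, whose 3 -P arrays (1049.8 to 2039.6) all lay above the 3 +P arrays (383 to 638), by 1.49 ± 0.58 (adjusted p = 0.588), the 1 member separated upward (4.93% of all probe sets). WRKY18 and ZAT12 were separated downward (4.37% of all probe sets), by -0.49 ± 0.32 and -0.39 ± 0.56. ZAT12 read 577, 530.0 and 539 on -P against 773, 694 and 697 on +P. The SE of ZAT12 pools groups with SDs up to 1.04, while these 2 groups had SDs of 0.06 and 0.09. With these 2 groups fitted alone, ZAT12 was still not called: the fit called 0 of the 8 and 0.681% of all probe sets. The genotypes' responses at 1 week were not shown to differ for any of the 8 (0 called, 0.0791% of all probe sets, 1 of the 8 and 5.21% of all at an unadjusted p under 0.05). ZAT12 (-1.55 ± 0.79, adjusted p = 0.941), ZAT10 (-1.41 ± 0.64, adjusted p = 0.93) and WRKY70 (1.38 ± 0.82, adjusted p = 0.941) had the widest differences. The 1 week response minus the 3 h response was called for 0 of the 8 in WT (0.457% of all probe sets, 0 of the 8 and 7.74% of all at an unadjusted p under 0.05) and for 0 of the 8 in pnp1-1 (0.365%, 1 of the 8 and 3.79%: WRKY70 at 1.95 ± 0.82, adjusted p = 1).

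Put in order of level within each time, the 8 genes did not share a single order of groups, but some groups took the same place in many of them. At 3 h WT on -P was the highest group for 7 of them, and pnp1-1 on -P the lowest for WRKY18, WRKY33, WRKY53 and WRKY70, with a span from highest to lowest group of 5.26-fold for WRKY70 and 4.70-fold for WRKY53. For WRKY40 the other 3 groups at 3 h lay between 407 and 559 and overlapped. At 1 week WT on +P was the lowest group for 7 of the 8, and pnp1-1 on -P the highest for WRKY40, WRKY33, WRKY53, WRKY70 and ZAT10. The span was 7.20-fold for WRKY53, from a level under 16, and 5.80-fold for ZAT10. Of the 48 pairs of neighbouring groups in these orders, 39 overlapped. The 8 genes share the same arrays, and how often such places or overlaps occur over all probe sets was not counted.

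Among the 8, array by array and with each time point's mean taken off, 26 of 28 pairs correlated above 0 over the 24 arrays, with a median r of 0.47. WRKY40 and ZAT10 were the closest pair (r = 0.87), followed by WRKY40 and WRKY33 (0.80), and WRKY18 and ZAT12 the farthest apart (-0.25). With group means taken off, so that replicates alone remained, 17 of 28 pairs were above 0 (median 0.14); WRKY40 and ZAT10 still reached 0.81 and WRKY40 and WRKY70 0.73, while WRKY18 and ZAT12 stood at -0.62. The arrays share RNA preparation and normalization, so these values describe the arrays. Of 14542 probe sets with a group mean of at least 16, the 1 most like WRKY33 was that of AT1G55450 (r = 0.91 over 24 arrays), and WRKY46 (0.75) and WRKY53 (0.77) had the same nearest probe set, that of AT5G52760. The nearest probe sets of the other 5 members are not named in the table used here and reached 0.84 to 0.89.

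**Figure D4:**
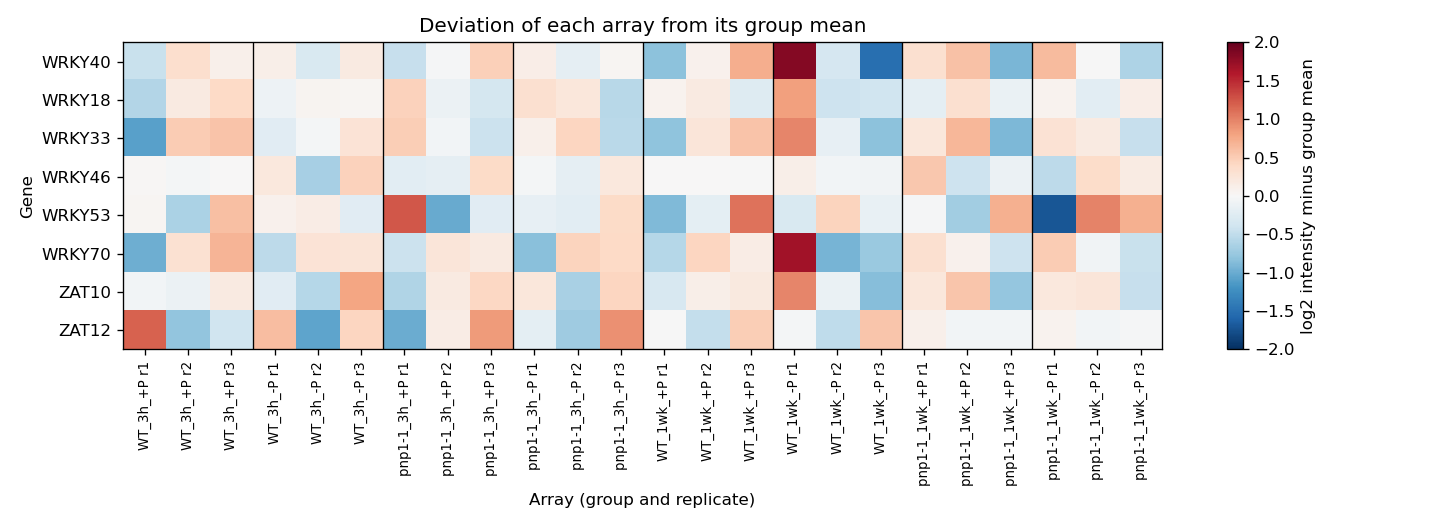
Log2 intensity minus the group mean (colour, red above and blue below) for each gene on each of the 24 arrays, labelled by group and replicate (r1 to r3). WT -P replicate 1 at 1 week is red for WRKY40, WRKY18, WRKY33, WRKY70 and ZAT10, and ZAT12 often takes the opposite colour to WRKY18 in the same array.

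Of 36 further genes listed as relatives, partners or targets of the 8, 4 have a probe set named in the table: WRKY6, WRKY22, WRKY42 and ZAT5. Over the 15 comparisons 1 of the 4 was called, in 2 of them. WRKY6, which represses the phosphate exporter gene PHO1 and also acts in senescence, was higher in pnp1-1 on +P at 3 h by 1.89 ± 0.48 (adjusted p = 0.0212), at a level of 362 against 97.7, and by 1.11 ± 0.24 over the mean of the 4 conditions (adjusted p = 0.0024). Its levels were 165 and 372 in WT and 433 and 570.5 in pnp1-1 on +P and -P at 1 week, where neither difference was called. WRKY22, a factor of immune kinase signalling, had group levels of 43.7 to 85.7 at 3 h and 17.1 to 44.0 at 1 week, with no call. Those of ZAT5, also with no call, were 22.7 to 84.2 at 3 h and 72.4 to 194 at 1 week. WRKY42, a second regulator of PHO1, lay at background in all 8 groups (3.92 to 4.26).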

How the data were processed

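Total RNA from 24 shoot samples was hybridised to single-colour arrays. The authors deposited 1 linear intensity per probe set and array. The tools GCRMA, affy and limma are named per the submitters' processing notes, without versions or steps. How arrays were batched for normalization is not stated in any label or header read here. Log2 was taken, 64 control probe sets were left out, and 1 mean per group was fitted to 22746 probe sets with limma 3.58.1 in R 4.3.3 (16 residual degrees of freedom, a prior of 1.4). Adjusted p-values are Benjamini-Hochberg over all probe sets in each of 15 comparisons, 2 of which were added after the values had been seen. The fit was checked on simulated data with independent noise on each array. That check cannot show how the fit behaves where arrays deviate together, as some did here. The members and gene lists were chosen with earlier results of these data known. All 8 members are named, others by the lists and by highest correlation. The gene table gives 1 symbol for 13513 probe sets, several for 503 and none for 8794. Precision is limited by 3 arrays a group.

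Replicate numbers were taken to pair samples where all 3 same-numbered arrays deviated together (correlations over 0.1 across probe sets): the genotype comparisons on -P at 3 h (0.16 to 0.355) and at 1 week (0.546 to 0.623), and the phosphate responses at 3 h in WT (0.466 to 0.687) and pnp1-1 (0.23 to 0.433). No label names a day or batch that a number would mark. No sequences of the members were used here. Alternatives were normalization, centring, a floor, a dim filter, the samples fitted, gene-by-gene array weights, the prior, the block and leaving out arrays. In a further alternative, WT +P replicates 2 and 3 at 1 week were averaged as a single array.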

Additional observations from a re-analysis of the deposited data

Results flagged for a closer look

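The items here were flagged because 2 pairs of groups separated without overlap in opposite directions. That separation is the rule of selection, and how often it occurs over all probe sets was not counted. For WRKY33, all 3 WT arrays at 3 h were higher on -P than on +P and all 3 pnp1-1 arrays lower. Neither response was called (adjusted p = 1 in each). The test of the difference gave -1.99 ± 0.74 (limma adjusted p = 1).

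For ZAT12 at 1 week, every WT array was higher on -P than any on +P and every pnp1-1 array lower. The test of the difference gave -1.55 ± 0.79 (limma adjusted p = 0.941).

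For WRKY53 on -P, every pnp1-1 array lay below the WT arrays at 3 h and above them at 1 week. The test of the difference between the times gave 4.44 ± 0.94 (limma adjusted p = 0.053), over 12 arrays whose 2 times cannot be told apart from their processing.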

How the results depend on the processing

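Of 145 counts of members called under alternatives that kept all arrays or left out a named set, 113 stayed within 1.5 times the value reported. These include counts of 0 that stayed 0, so they do not measure how steady the calls were. They also include counts kept by other genes, as on -P at 3 h with median centring, the replicate block, or each time or the compared groups alone. No called difference changed sign in 2297 refits of single members, and 66 differences that were not called did. Array weights moved most. They gave 3 calls on +P at 3 h for the genotype effect (11.2% of all probe sets called), 5 on -P at 3 h (14.1%), 6 on +P at 1 week (34.7%), 5 on -P at 1 week (15.2%) and 6 for the mean of the 4 conditions (36.7%). They gave 2 for the phosphate effect in pnp1-1 at 1 week (12.9%), 1 for the interaction at 1 week (11.4%), 1 for the change of the pnp1-1 response with time (3.14%), and 2 on +P (6.55%) and 5 on -P (4.34%) for the change of the genotype effect with time. The cause was not tested. Leaving out dim probe sets gave 1 call on +P (12.8% of those tested) and 4 on -P (7.36%) at 3 h and 1 for the change of the genotype effect on -P (0.523%), with fewer probe sets tested and WRKY46 removed. The genotype effect on -P at 3 h had 1 call with quantile normalization and 1 with levels under 16 set to 16. That on +P at 1 week had 1 with this floor, 1 with the compared groups alone, 1 with WT +P replicates 2 and 3 averaged, 1 without the 3 arrays of raised lower quartile and 0 with a replicate block. That on -P at 1 week had 1 without those 3 arrays. The WT response at 1 week had 0 calls with each time or the compared groups alone (1.31% of all probe sets for the latter), with the block, with that pair averaged or without those arrays, and the pnp1-1 response had 1 with the block (WRKY70). The change of the genotype effect on -P had 1 with quantile normalization, median centring, the floor or a trended robust prior, and 3 without those arrays. With 1 array left out, the counts ran from 0 to 1 for the genotype effect on +P and on -P at 3 h, 0 to 3 on +P and 0 to 1 on -P at 1 week, 0 to 1 for the WT response at 1 week, 1 to 3 for the mean of the 4 conditions and 0 to 2 for the change on -P, and stayed at 0 elsewhere. The replicate block changed no other count of members called by over 1.5 times.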
